A study of Homo sapiens with 12 samples.

Results

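The genes described here act in the endoplasmic reticulum (ER) and in its unfolded protein response (UPR). They are the chaperones and foldases HSPA5, HSP90B1, CALR, PDIA4 and SDF2L1, the sensors ERN1 and ATF6, the transcription factor XBP1, and HERPUD1 and SEL1L, which act in ER-associated degradation. They were taken by gene symbol, and all 10 were found among the 14866 genes listed and among the 13502 genes tested. RNA-seq was carried out on SHI-1, a myeloid leukemia cell line that carries the MLL-AF6 fusion. Cells received DMSO, 0.3 µM disulfiram with 1 µM copper (DSF), 5 µM niclosamide (NSM) or all of these agents (DSF + NSM) for 16 h, with 3 libraries from independent experiments in each group. The labels name copper for the DSF and DSF + NSM groups, so that disulfiram and copper cannot be told apart in these data. The labels name RPMI as the medium, whereas the supplementary methods name IMDM. All libraries came from this line, and the tables give levels per gene without separating transcript forms.

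The ER folds secreted and membrane proteins with the help of chaperones, and misfolded proteins are sent back to the cytosol for degradation. Sensors in its membrane, IRE1 (the product of ERN1), PERK (EIF2AK3) and ATF6, respond when unfolded proteins accumulate. IRE1 splices the XBP1 message, ATF6 is cut to release a transcription factor, and PERK phosphorylates eIF2α. Phosphorylation of eIF2α by PERK or by other kinases also starts the integrated stress response (ISR), in which ATF4 and its targets such as DDIT3 rise. The study followed eIF2α phosphorylation after NSM, and the comparison made here was whether genes of the ER response moved together with those of the ISR.

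All 8 myeloid markers were above 0 in every library, and they moved in both directions, with 2 higher and 1 lower under DSF, 4 and 3 under NSM, and 2 and 2 under DSF + NSM. The shares called were 37.5%, 87.5% and 50%, against 17.8%, 49.1% and 52.8% of all genes. MPO, the granule enzyme myeloperoxidase, was at 54162 to 62640 in DMSO and 14454 to 18630 in NSM, and the macrophage marker CD68 at 557 to 657 and 1277 to 1772. Of 7 markers of other cells, 5 were listed, with MS4A1 at 0 in all 12 libraries and CD3E at 69.5 to 76.5 in DMSO. Their summed level was 100 to 108 in DMSO, 121 to 146 in DSF, 149 to 195 in NSM and 222 to 409 in DSF + NSM. The part of these markers in the results was not tested, and fewer cells of a type and less RNA per cell cannot be told apart in bulk RNA. The estimated depth was 10.2 M to 19.0 M reads per library. The share of the sum taken by 4 rRNA genes was 1.11% to 2.84% in DMSO and 3.71% to 4.98% in DSF. It was 0.643% to 3.69% in NSM, lowest in library 3, and 6.35% to 7.96% in DSF + NSM. NSM library 3 stood apart, with rank correlations of 0.952 and 0.959 with the other NSM libraries, and it was the farthest of its group for 8 of the 10 ER genes. In DSF + NSM, library 3 was the farthest for 9 of 10. The sum of normalized counts was 14.0 M to 14.4 M in DMSO, 14.9 M to 15.3 M in DSF, 16.5 M to 17.5 M in NSM and 22.7 M to 25.6 M in DSF + NSM. Scaling every library to the same sum (equal sums) moved the median log2 change of all genes from 0.05 to -0.05 in DSF, from 0.01 to -0.25 in NSM and from 0.03 to -0.75 in DSF + NSM. With this scaling 18.2%, 49.9% and 67.5% of all genes were called against DMSO in these groups. Changes are therefore relative to the authors' scaling, and a direction that turns under equal sums is named with its value. Median of ratios scaling, with factors of 0.970 to 1.03, turned 0 of 60 results of the ER genes, kept 59 and gained 1 call. The heat shock gene HSP90AA1 was at 45766 to 49362 in DMSO and at 629743 to 908983 in DSF + NSM. The part of rRNA and heat shock genes in the higher DSF + NSM sum was not tested. Which scaling reflects RNA per cell was not tested.

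The promoter letters are shown for the ER genes that hold a match to the ER stress response element (ERSE), bound by ATF6 with NF-Y, or to its second form (ERSE-II). They come from RefSeq windows of 300 bases, 250 before and 50 from the transcription start (GRCh38.p14), in which all 10 ER genes were matched. The motifs searched on both strands were CCAAT and CCACG with 9 bases between them (ERSE), ATTGG and CCACG with 1 base between them (ERSE-II), TGACGTGG (UPR element) and TGATGNAA (C/EBP-ATF response element, CARE, bound by ATF4). Capitals mark the matches, 5′ to 3′ on the strand of the gene, so that a match on the opposite strand is seen as its reverse complement:
HSPA5 (chr9:125241381-125241419, minus strand): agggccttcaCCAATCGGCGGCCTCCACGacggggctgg
HSP90B1 (chr12:103930206-103930349, plus strand): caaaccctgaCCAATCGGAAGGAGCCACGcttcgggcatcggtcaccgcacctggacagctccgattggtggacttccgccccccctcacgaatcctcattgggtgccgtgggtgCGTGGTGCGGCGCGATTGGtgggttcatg
CALR (chr19:12938374-12938412, plus strand): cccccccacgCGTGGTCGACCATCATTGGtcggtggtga
XBP1 (chr22:28800593-28800631, minus strand): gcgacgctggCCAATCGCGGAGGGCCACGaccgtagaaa
HERPUD1 (chr16:56931956-56932045, plus strand): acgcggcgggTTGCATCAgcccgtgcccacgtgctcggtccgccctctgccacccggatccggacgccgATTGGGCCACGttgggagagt
SDF2L1 (chr22:21642104-21642134, plus strand): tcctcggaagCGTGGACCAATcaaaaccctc

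ERSE was matched in 4 of the 10 ER genes (HSPA5, HSP90B1, CALR and XBP1) and in 0.0769% of 35116 RefSeq windows. ERSE-II was matched in HERPUD1 and SDF2L1, against 0.0541% of windows. In HERPUD1 the ERSE-II letters ended 107 bases before the start, and a CARE match, present in 3.62% of windows, lay farther upstream, from 176 to 169 bases before the start. TGACGTGG was found in none of the 10 and in 0.729% of windows. Of the 26 ISR genes with a window, 0 held ERSE and 7 (26.9%) held CARE, among them ATF3, CHAC1 and ASNS, whose matches are shown for comparison:
ATF3 (chr1:212565206-212565233, plus strand): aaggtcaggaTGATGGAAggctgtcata
CHAC1 (chr15:40953252-40953279, plus strand): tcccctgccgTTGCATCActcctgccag
ASNS (chr7:97872459-97872486, minus strand): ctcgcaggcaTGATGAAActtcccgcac
A match of letters describes the window and is no measured binding. HSP90B1 holds 2 ERSE matches in its window, 194 to 176 and 89 to 71 bases before the start.

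**Figure D1:**
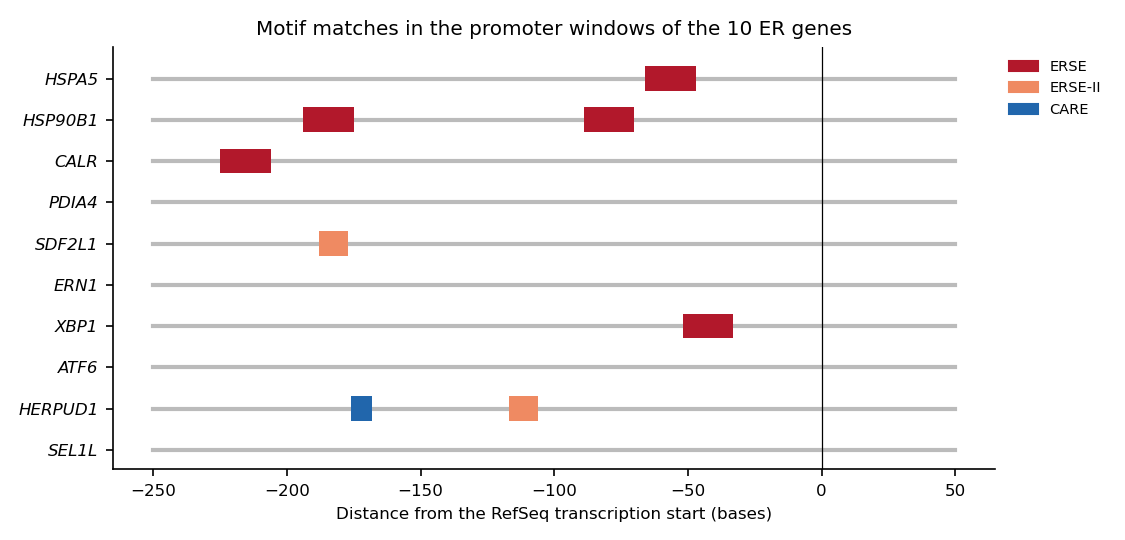
Motif matches in the promoter windows of the 10 ER genes, drawn by distance in bases from the RefSeq transcription start, with ERSE in red, ERSE-II in orange and CARE in blue. HSPA5, HSP90B1, CALR and XBP1 hold ERSE, HERPUD1 and SDF2L1 hold ERSE-II, HERPUD1 also holds CARE, and PDIA4, ERN1, ATF6 and SEL1L hold none of these letters.

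Per kilobase of the canonical transcript in GENCODE 44, a scale that allows levels to be compared between genes, CALR had the highest DMSO level of the 10, at 17380 ± 981 normalized counts (SD, n = 3). HSP90B1 followed at 4525 ± 97.0 and HSPA5 at 3075 ± 109. XBP1 stood at 1991 ± 18.4, PDIA4 at 1005 ± 68.5, SDF2L1 at 544 ± 39.5 and HERPUD1 at 292 ± 7.78. ATF6 and SEL1L were at 155 ± 6.37 and 129 ± 13.6, and ERN1 was lowest at 8.17 ± 0.369. Neighbours in this order lay apart by more than their SDs. In DSF + NSM, HSPA5 reached 14950 ± 2680 per kilobase, above HSP90B1 at 6558 ± 176 and below CALR at 27575 ± 1154.

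HSPA5, XBP1, ERN1 and HERPUD1 rose under DSF, under NSM and under DSF + NSM, while CALR and HSP90B1 passed the test against DMSO in DSF + NSM alone, where they rose but turned to -0.12 and -0.25 on the log2 scale under equal sums. PDIA4 fell under DSF + NSM, SDF2L1 fell under NSM, and ATF6 and SEL1L passed the test in none of the 3 comparisons with DMSO. Counts were 4 higher and 0 lower of 10 for DSF, where 17.8% of all genes tested were called (11.9% higher, 5.95% lower), 4 higher and 1 lower for NSM (49.1% of all genes; 25.4% higher, 23.7% lower) and 6 higher and 1 lower for DSF + NSM (52.8%; 28.3% higher, 24.5% lower). Under equal sums the count was 4 higher and 1 lower with DSF, and 4 higher and 3 lower both with NSM and with DSF + NSM, where 18.2%, 49.9% and 67.5% of all genes were called. Among DSF libraries 5 genes were above and 4 below all DMSO libraries, where 33.4% and 27.6% of all genes were. With NSM these counts were 5 and 1, against 29.1% and 27.9%, and with DSF + NSM they were 6 and 2, against 36.4% and 32.9%. For NSM, the share of ER genes called is close to that of all genes. The median log2 change of the 10 was 0.10, 0.52 and 0.60, against medians of 0.05, 0.01 and 0.03 for all genes. The 3 comparisons share the same DMSO libraries.

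**Figure D2:**
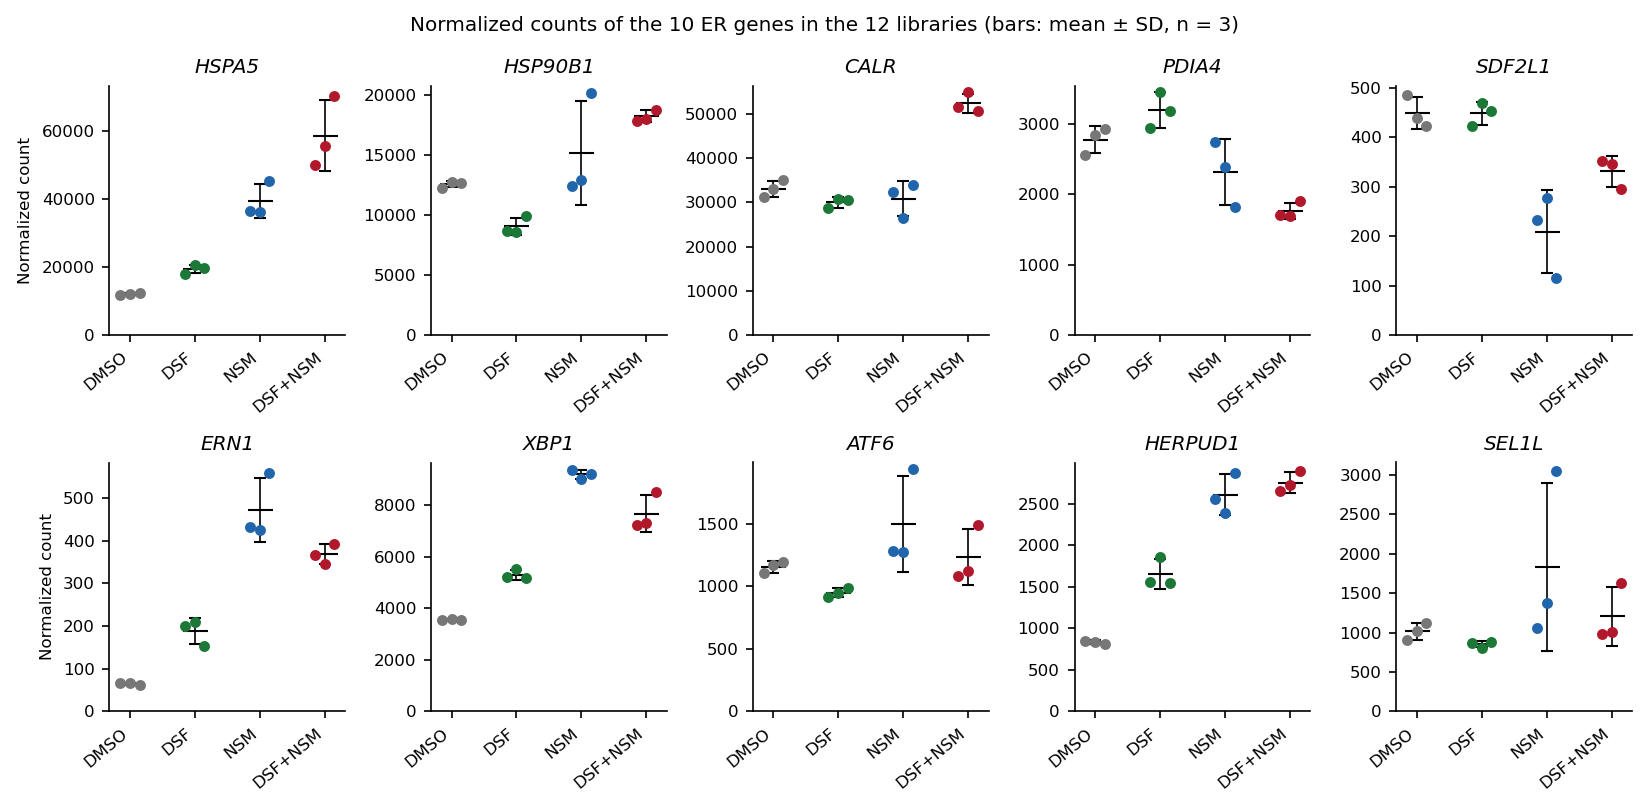
Normalized count (y axis, from 0) of each of the 10 ER genes in the 12 libraries, with points for libraries 1 to 3 of each group from left to right and bars for the mean ± SD (n = 3). HSPA5, XBP1, ERN1 and HERPUD1 lie above all DMSO libraries in every treated group, CALR lies above them in DSF + NSM alone (a rise that turns to -0.12 on the log2 scale under equal sums), and NSM library 3 is far from the other NSM libraries for SEL1L, ATF6 and HSP90B1.

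ERN1 (chr17:64039080-64130819, minus strand, GRCh38) encodes IRE1, the kinase and RNase that splices XBP1. Its normalized counts were 66.1, 66.2 and 61.1 in DMSO, 201, 210 and 153 in DSF, 432, 424 and 558 in NSM, and 366, 346 and 392 in DSF + NSM. All DSF libraries lay above DMSO and below NSM and DSF + NSM, and no group overlapped another. ERN1 rose by 1.52 ± 0.17 (log2 change ± SE) under DSF, 2.86-fold on the log2(value + 1) scale (limma, adjusted p = 0.000105). It rose 7.16-fold under NSM (log2 change 2.84, adjusted p = 2.29e-07) and 5.63-fold under DSF + NSM (2.49, adjusted p = 2.38e-07). These calls held in every alternative run. ERN1 is the gene of lowest level here, and it shares exon bases with 2 lncRNA genes on the opposite strand, 432 and 452 bases. The supplementary methods name the Illumina TruSeq RNA kit Version 2 with random primed cDNA, and they name no step that keeps the strand. Whether the counting used strand is not stated in the sources used here. Reads from the opposite strand may therefore be part of the ERN1 counts, which was not tested.

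XBP1 (chr22:28794555-28800597, minus strand) encodes the transcription factor made from the message that IRE1 splices. Its counts were 3548, 3604 and 3547 in DMSO, 5238, 5535 and 5165 in DSF, 9376, 9031 and 9204 in NSM, and 7223, 7300 and 8506 in DSF + NSM. The 4 groups did not overlap, and their order was DMSO, DSF, DSF + NSM and NSM. XBP1 rose 1.49-fold under DSF (log2 change 0.57 ± 0.10 SE, adjusted p = 0.0022), 2.58-fold under NSM (1.37, adjusted p = 7.8e-07) and 2.15-fold under DSF + NSM (1.10, adjusted p = 2.16e-06). These calls held in every alternative, but the DSF + NSM value shrank to 0.32 under equal sums (adjusted p = 0.0249). Spliced and unspliced XBP1 cannot be told apart in levels per gene.

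ATF6 (chr1:161766298-161977574, plus strand), the sensor that is itself a transcription factor precursor, was at 1103, 1170 and 1196 in DMSO. It was at 914, 943 and 987 in DSF, 1286, 1272 and 1939 in NSM, and 1084, 1125 and 1490 in DSF + NSM. DSF libraries lay below and NSM libraries above all DMSO libraries, whereas DSF + NSM overlapped DMSO. The log2 changes were -0.29 (95% interval -0.66 to 0.09), 0.35 (-0.03 to 0.72) and 0.08 (-0.30 to 0.45), with adjusted p = 0.276, 0.114 and 0.725. Without NSM library 3 the DSF value passed the test (-0.29, adjusted p = 0.0458), since that library adds to the spread shared by all groups. The DSF + NSM value turned to -0.70 under equal sums (adjusted p = 0.00501) and to -0.065 without DSF + NSM library 3.

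HSPA5 (chr9:125234853-125241382, minus strand) encodes BiP, the main chaperone of the ER lumen, which also holds the sensors inactive. Its counts were 11608, 12099 and 12460 in DMSO, 17983, 20530 and 19633 in DSF, 36603, 36295 and 45305 in NSM, and 49949, 55601 and 70307 in DSF + NSM. The groups rose in that order without overlap. HSPA5 was 1.61-fold higher under DSF (log2 change 0.68 ± 0.14 SE, adjusted p = 0.00548), 3.25-fold higher under NSM (1.70, adjusted p = 1.73e-06) and 4.81-fold higher under DSF + NSM (2.27, adjusted p = 8.84e-08). These 3 calls held in every alternative, with DSF + NSM at 1.48 under equal sums.

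HSP90B1 (chr12:103930107-103953931, plus strand) encodes GRP94, the HSP90 of the ER. Its counts were 12283, 12792 and 12692 in DMSO, 8688, 8583 and 9911 in DSF, 12454, 12911 and 20181 in NSM, and 17878, 18056 and 18801 in DSF + NSM. DSF libraries lay below all others and DSF + NSM libraries above DMSO, while NSM overlapped DMSO with library 3 far above. The DSF log2 change of -0.48 ± 0.16 SE did not pass (adjusted p = 0.0553). It passed without NSM library 1 (adjusted p = 0.0369) or NSM library 3 (0.000235), with the replicate number as a block (0.0382), with library weights (1.19e-07) and when DSF and DMSO alone were fitted (1.51e-05). HSP90B1 rose 1.45-fold under DSF + NSM (0.54, adjusted p = 0.0128), a value that turned to -0.25 under equal sums. HSP90B1 shares 805 exon bases with UQCC6 on the opposite strand.

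CALR (chr19:12938578-12944489, plus strand) encodes calreticulin, a lectin chaperone that binds calcium. It was at 31222, 32948 and 34947 in DMSO, 28651, 30866 and 30586 in DSF, 32237, 26395 and 33954 in NSM, and 51628, 54901 and 50734 in DSF + NSM. All DSF + NSM libraries lay above the other 9, and NSM overlapped DMSO. CALR rose 1.59-fold under DSF + NSM (log2 change 0.67 ± 0.11 SE, adjusted p = 0.000305), which turned to -0.12 under equal sums. Under DSF the change was -0.14 (95% interval -0.38 to 0.10) and under NSM -0.11 (-0.35 to 0.14), with adjusted p = 0.43 and 0.456. CALR shares 270 exon bases with a lncRNA on the opposite strand.

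PDIA4 (chr7:149003062-149028662, minus strand) encodes a disulfide isomerase. Its counts were 2567, 2852 and 2926 in DMSO, 2946, 3453 and 3194 in DSF, 2748, 2388 and 1822 in NSM, and 1704, 1692 and 1902 in DSF + NSM. DSF + NSM libraries lay below all DMSO and DSF libraries, and NSM overlapped DMSO. PDIA4 fell by 0.65 on the log2 scale under DSF + NSM (adjusted p = 0.00241), and this call held in every alternative. The NSM change of -0.28 (adjusted p = 0.131) passed without NSM library 1 (-0.41, adjusted p = 0.0317) and was -0.12 without NSM library 3 (adjusted p = 0.345).

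SDF2L1 (chr22:21642302-21644299, plus strand) encodes a subunit of an ER chaperone complex that keeps HSPA5 clients soluble. Its counts were 485, 438 and 423 in DMSO, 422, 470 and 452 in DSF, 233, 278 and 115 in NSM, and 352, 346 and 295 in DSF + NSM. NSM libraries lay below all others, and DSF overlapped DMSO. SDF2L1 fell by 1.19 on the log2 scale under NSM (adjusted p = 0.00219), and by 0.76 with library weights. The DSF + NSM change was -0.44 (adjusted p = 0.17), and it passed without NSM library 3 (adjusted p = 0.00372). Under DSF the change was 0.00 (95% interval -0.56 to 0.56).

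HERPUD1 (chr16:56932142-56944864, plus strand) encodes a membrane protein of the ER-associated degradation complex. Its counts were 850, 840 and 807 in DMSO, 1551, 1864 and 1540 in DSF, 2561, 2392 and 2874 in NSM, and 2650, 2720 and 2890 in DSF + NSM. NSM and DSF + NSM overlapped each other and lay above DSF, which lay above DMSO. HERPUD1 rose 1.98-fold under DSF (log2 change 0.98 ± 0.12 SE, adjusted p = 0.00017), 3.12-fold under NSM (1.64, adjusted p = 7.5e-07) and 3.30-fold under DSF + NSM (1.72, adjusted p = 2.28e-07), in every alternative.

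SEL1L (chr14:81471547-81533853, minus strand) encodes the adaptor of the ubiquitin ligase SYVN1 in the same pathway. It was at 913, 1017 and 1128 in DMSO, 870, 810 and 884 in DSF, 1062, 1378 and 3044 in NSM, and 981, 1004 and 1632 in DSF + NSM. Library 3 was far above the others in NSM and in DSF + NSM, and both groups overlapped DMSO. The log2 changes were -0.25 (95% interval -0.93 to 0.43), 0.70 (0.01 to 1.38) and 0.21 (-0.48 to 0.89), with adjusted p = 0.625, 0.0836 and 0.608. The NSM value was 0.25 without NSM library 3, and it passed without NSM library 1 (1.01, adjusted p = 0.0144) and with the block (0.0273), and the DSF + NSM value turned to -0.58 under equal sums and to -0.033 without DSF + NSM library 3.

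**Figure D3:**
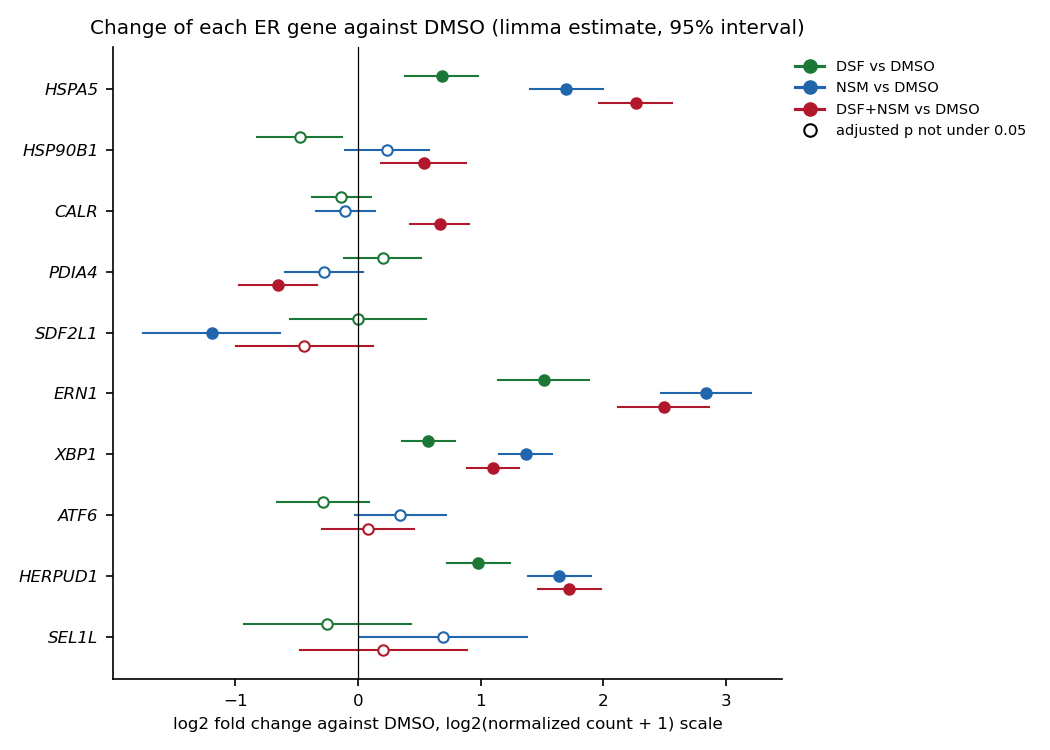
Log2 fold change of each ER gene against DMSO (x axis, log2(normalized count + 1) scale) with its 95% interval, for DSF in green, NSM in blue and DSF + NSM in red, and open points where the adjusted p was not under 0.05. HSPA5, ERN1, XBP1 and HERPUD1 are filled in all 3 comparisons, whereas the DSF + NSM rises of CALR and HSP90B1 (0.67 and 0.54) turn to -0.12 and -0.25 under equal sums.

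Against DSF alone, 6 of the 10 genes were higher and 1 lower in DSF + NSM, where 43.1% of all genes were called (21.7% higher, 21.4% lower). HSPA5 was 3.00-fold higher (log2 difference 1.58, adjusted p = 4.19e-06), HSP90B1 2.02-fold (1.01, adjusted p = 0.000312) and CALR 1.75-fold (0.80, adjusted p = 0.000129). ERN1 was 1.97-fold (adjusted p = 0.000671), HERPUD1 1.67-fold (0.000336) and XBP1 1.44-fold higher (0.00105), and PDIA4 differed by -0.86 on the log2 scale, with adjusted p = 0.000578. No gene overlapped between these groups, 8 being higher and 2 lower, where 31.2% of all genes were higher and 31.2% lower without overlap. Without NSM library 3 all 10 passed, and 60.2% of all genes did. Under equal sums 3 passed, 1 higher and 2 lower, against 61% of all genes, with HSPA5 at 0.90, and XBP1 turned to -0.16. Against NSM alone, 3 were higher and 1 lower, where 38.6% of all genes were called (20.3% higher, 18.3% lower). CALR was 1.71-fold higher (log2 difference 0.77, adjusted p = 0.000212), HSPA5 1.48-fold (0.57, adjusted p = 0.00633) and SDF2L1 1.69-fold (0.75, adjusted p = 0.0353), and XBP1 differed by -0.27 (adjusted p = 0.049). Without overlap 3 genes were higher and 2 lower, where 22.2% and 19.3% of all genes were.

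Under equal sums 1 gene was higher and 6 lower than in NSM, where 54.6% of all genes were called. Of these differences from NSM, that of CALR held in every alternative. The HSPA5 difference was lost when NSM and DSF + NSM alone were fitted (adjusted p = 0.0685) and under equal sums, where it was 0.05. The XBP1 difference was lost in 10 of 12 fits with a library left out, all but those without NSM library 3 or DSF + NSM library 3 (adjusted p up to 0.162). The SDF2L1 difference was lost without DMSO library 2 (adjusted p = 0.0506), DSF + NSM library 1 (0.103) or DSF + NSM library 2 (0.0991), and was 0.37 without NSM library 3. It was also lost under equal sums (0.24, adjusted p = 0.46) and when NSM and DSF + NSM alone were fitted (0.75, adjusted p = 0.153). Without DMSO library 2, DSF + NSM library 1 or DSF + NSM library 2, 2 ER genes were called, against 34.7%, 27.3% and 27.4% of all genes. Without NSM library 3, 6 were called, against 49.2%, PDIA4 at -0.54 (adjusted p = 0.000535) and HSP90B1 at 0.52 (0.00017) among them, and SEL1L passed without NSM library 1 (-0.81, adjusted p = 0.0456). HERPUD1 differed by 0.08 (95% interval -0.17 to 0.34), which turned to -0.43 under equal sums (adjusted p = 0.0104). ERN1 differed by -0.35 (-0.72 to 0.02), and by -0.86 under equal sums, which passed (adjusted p = 0.00156).

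The DSF + NSM change was next compared with the sum of the single-drug changes on the log2 scale, by the interaction term of the fit. Of the 10 genes, 2 were above the sum and 3 below it, where 26.1% of all genes were called (12.1% above, 14% below). CALR exceeded it by 0.91 ± 0.16 SE (adjusted p = 0.0014) and HSP90B1 by 0.78 ± 0.22 (adjusted p = 0.0225). ERN1 fell short of it, at -1.86 ± 0.24 (adjusted p = 0.000247), as did HERPUD1 at -0.90 ± 0.17 (adjusted p = 0.00202) and XBP1 at -0.84 ± 0.14 (adjusted p = 0.00107). HSPA5 was at -0.12 (95% interval -0.54 to 0.30, adjusted p = 0.691). The HSP90B1 value was lost without DMSO library 2 (0.77, adjusted p = 0.0538), DSF library 1 (0.056), DSF library 2 (0.0592) or NSM library 2 (0.0527), and was 0.36 under equal sums. PDIA4, at -0.57 (adjusted p = 0.0587), passed without NSM library 3 (-0.74, adjusted p = 0.000489), and SDF2L1, at 0.75 (0.149), without NSM library 2 (1.01, 0.0465). Under equal sums 1 ER gene was above the sum and 4 below it, where 35.3% of all genes were called.

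**Figure D4:**
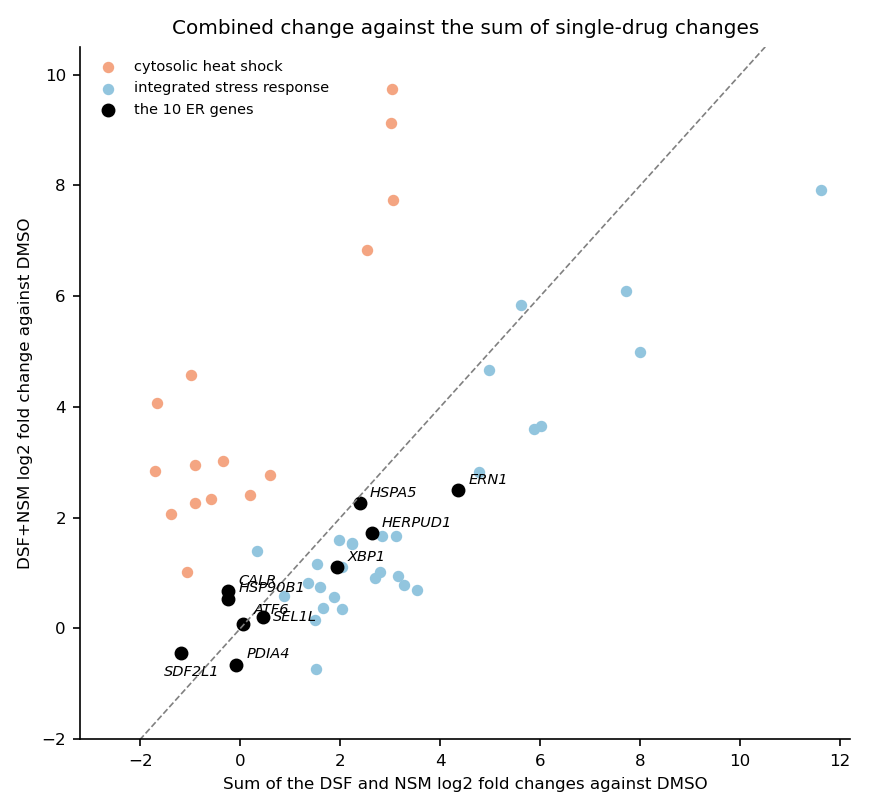
DSF + NSM log2 change against DMSO (y axis) plotted against the sum of the DSF and NSM log2 changes (x axis), with the 10 ER genes in black, 29 ISR genes in blue, 16 genes of the cytosolic heat shock list (mitochondrial HSPE1 and HSPD1 among them) in orange and the dashed line where the values are equal. ERN1, HERPUD1 and XBP1 lie below the line with most ISR genes, CALR and HSP90B1 lie above it with all heat shock genes, HSPA5 lies near it, and all 3 changes share the DMSO libraries.

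The ISR list of 29 genes rose in each comparison with DMSO. Under DSF 23 of 29 rose and 0 fell (median log2 change 0.75), where 11.9% of all genes rose, under NSM 27 rose and 0 fell (1.70), and under DSF + NSM 26 rose and 1, STC2, a secreted glycoprotein, fell (1.17). Of all genes, 25.4% rose under NSM and 28.3% under DSF + NSM. Under equal sums the DSF + NSM split was 14 higher and 4 lower, where 67.5% of all genes were called. ATF4, the transcription factor of the ISR, was at 9707, 8833 and 8049 in DMSO, 12902, 15226 and 14061 in DSF, 30445, 26500 and 22166 in NSM, and 26892, 26814 and 23065 in DSF + NSM. It rose 1.59-fold, 2.96-fold and 2.89-fold (adjusted p = 0.00568, 2.7e-06 and 1.87e-06). DDIT3, which encodes the factor CHOP, was at 244, 193 and 139 in DMSO, 1509, 2074 and 1439 in DSF, 6192, 5479 and 4723 in NSM, and 5778, 6140 and 6043 in DSF + NSM. Neither gene differed past the threshold between NSM and DSF + NSM (adjusted p = 0.859 and 0.6).

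TRIB3, a pseudokinase target of ATF4 and CHOP, changed by 2.29 (DSF), 3.73 (NSM) and 3.65 (DSF + NSM) on the log2 scale, and CHAC1, an enzyme that degrades glutathione, by 2.34, 2.44 and 2.82. ASNS, asparagine synthetase, changed by 0.62, 2.08 and 0.92, the last at 0.13 and not called under equal sums (adjusted p = 0.478). ATF3 reached 5.85 in DSF + NSM from 2.77 and 2.85, PPP1R15A, the eIF2α phosphatase subunit GADD34, 6.10 from 3.14 and 4.58, and SESN2 4.66 from 2.06 and 2.91, all called. GDF15, a secreted stress cytokine, was listed at 0.756 to 0.98 in DMSO, about the worth of 1 read, and at 98.1 to 125, 71.6 to 120 and 424 to 477 in the treated groups. In the interaction 22 of 29 ISR genes were below the sum of the single-drug changes and 0 above it (median -1.33), DDIT3 at -3.00 and ATF4 at -0.70 among them. Of all genes, 14% were called below the sum and 12.1% above it. Without DSF library 2 the ATF4 value was -0.64 (adjusted p = 0.0509).

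The ER genes and the ISR list were therefore set side by side for each library. The median log2 difference from the DMSO mean over the 29 ISR genes was 0.68 to 0.84 in DSF, 1.66 to 1.78 in NSM and 1.06 to 1.39 in DSF + NSM. Over the 10 ER genes it was 0.00 to 0.19 in DSF, 0.11, 0.29 and 1.06 in NSM libraries 1 to 3, and 0.58 to 0.65 in DSF + NSM. The ISR medians were highest in NSM, and the ER medians of 2 of the 3 NSM libraries lay below those of DSF + NSM. Under equal sums the ER medians were -0.19, 0.07 and 0.77 in NSM and -0.27, -0.20 and -0.02 in DSF + NSM, so that this order of the ER medians turned, and the ISR medians were 1.42 to 1.48 and 0.21 to 0.71. Within the 10, ERN1 and XBP1 had their highest levels in NSM, as the ISR median did. The ERN1 difference between NSM and DSF + NSM was not called (-0.35, adjusted p = 0.126), and that of XBP1 was called in only 2 of 12 fits with a library left out. HSPA5, CALR and HSP90B1 had their highest mean levels in DSF + NSM with the deposited scaling (under equal sums CALR and HSP90B1 were below DMSO there). HERPUD1 did not differ past the threshold between NSM and DSF + NSM.

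**Figure D5:**
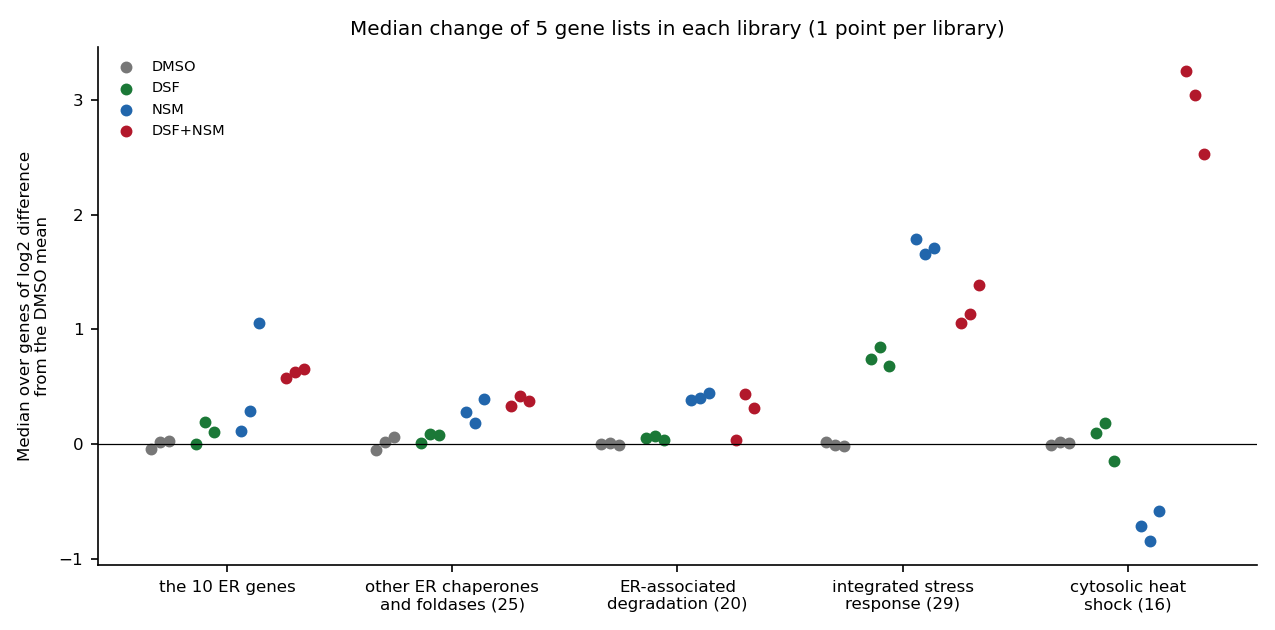
Median over the genes of a list of the log2 difference from the DMSO mean (y axis), with 1 point per library, for the 10 ER genes, 25 other ER chaperones and foldases, 20 genes of ER-associated degradation, 29 ISR genes and 16 genes of the cytosolic heat shock list (mitochondrial HSPE1 and HSPD1 among them). ISR medians are 0.68 to 0.84 in DSF and 1.66 to 1.78 in NSM, above those of the ER lists in DSF and NSM alike, and heat shock medians are above 2.5 in DSF + NSM alone.

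Of 25 other ER chaperones and foldases, 3 were higher and 1 lower under DSF, 10 and 4 under NSM, and 14 and 5 under DSF + NSM (median log2 changes 0.05, 0.30 and 0.44). The shares called were 16%, 56% and 76%, against 17.8%, 49.1% and 52.8% of all genes, so that those for DSF and NSM are near the background. Under equal sums the NSM split was 7 higher and 5 lower, and the DSF + NSM split was 2 higher and 12 lower, where 49.9% and 67.5% of all genes were called. HYOU1, an exchange factor for HSPA5, was at 2288, 2703 and 2890 in DMSO, 3966, 4608 and 4286 in DSF, 6425, 6228 and 5195 in NSM, and 3039, 3504 and 4173 in DSF + NSM. It was 1.64-fold higher under DSF (adjusted p = 0.00589), 2.27-fold under NSM (3.8e-05) and 1.35-fold under DSF + NSM (0.022), the last of which was lost without DMSO library 1 (0.34 on the log2 scale), DSF + NSM library 2 (0.45) or DSF + NSM library 3 (0.32) and turned to -0.35 under equal sums. In the interaction HYOU1 was at -1.45 (adjusted p = 0.000397).

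DNAJB9, a cochaperone of HSPA5 that restrains IRE1, changed by 1.47, 1.55 and 1.35 on the log2 scale in the same 3 comparisons, all called, but the last was lost under equal sums (0.57, adjusted p = 0.0893). DNAJB11, another cochaperone of HSPA5, was at 1934 to 2065 in DMSO, 1824 to 2099 in DSF, 2798 to 3512 in NSM and 4979 to 5735 in DSF + NSM. It rose 1.53-fold under NSM and 2.73-fold under DSF + NSM and was above the sum of the single-drug changes (0.84, adjusted p = 0.00358), a call lost under equal sums (0.42, adjusted p = 0.0556). DNAJC3, which inhibits PERK, rose by 0.87 under NSM and by 1.10 under DSF + NSM, the last at 0.31 and not called under equal sums (adjusted p = 0.127). ERO1LB, an oxidase that feeds disulfide isomerases, was at 2.94 to 3.53 in DMSO, worth 3 to 4 reads, and at 22.2 to 47.3 in DSF + NSM, and its log2 change of 3.16 was 1.82 with a pseudocount of 10. TXNDC5, a disulfide isomerase, fell by 1.19 under NSM and by 1.36 under DSF + NSM, the same comparisons in which UGGT1, which re-glucosylates misfolded glycoproteins for another round of folding, fell by 1.14 and 1.04.

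Of 20 genes of ER-associated degradation, 2 were higher and 1 lower under DSF, 10 and 1 under NSM, and 9 and 3 under DSF + NSM, shares of 15%, 55% and 60% that are near those of all genes. Under equal sums these splits were 1 and 2, 4 and 2, and 1 and 11, where 18.2%, 49.9% and 67.5% of all genes were called and the DSF + NSM median of all genes was -0.75. SYVN1, the ligase that works with SEL1L, rose by 0.85, 1.00 and 0.77 in the 3 comparisons, the last at -0.012 under equal sums. HERPUD2, a relative of HERPUD1, rose by 1.30 under NSM, and its interaction was -1.94 (adjusted p = 0.00115). FAF2 was highest in DSF + NSM (1.09), EDEM3 fell there by 1.36, and UBE2G2, a ubiquitin-conjugating enzyme, fell by 0.99 under NSM. EDEM1 rose by 0.51 under DSF + NSM, at -0.27 under equal sums, and by 0.45 under DSF, which was lost without any single DMSO or DSF library (adjusted p = 0.0514 to 0.147).

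Among 9 further sensors and transducers, 1 was higher and 0 lower under DSF, 3 and 2 under NSM, and 5 and 1 under DSF + NSM, or 0 and 0, 1 and 3, and 0 and 6 under equal sums. The shares called were 11.1%, 55.6% and 66.7%, the first pair near those of all genes (17.8% and 49.1%). With equal sums 18.2%, 49.9% and 67.5% of all genes were called. EIF2AK3, which encodes PERK, was at 264, 325 and 308 in DMSO, 441, 460 and 430 in DSF, 563, 555 and 1064 in NSM, and 423, 508 and 628 in DSF + NSM. All treated libraries lay above DMSO. Its DSF change did not pass (0.57, adjusted p = 0.11), NSM gave 2.32-fold (adjusted p = 0.00106) and DSF + NSM 1.72-fold (0.0139), which was lost without DMSO library 1 (0.70, adjusted p = 0.0553) or DSF + NSM library 3 (0.63, adjusted p = 0.0603) and was -0.00094 under equal sums. ATF6B, a relative of ATF6, fell by 0.56 under NSM. MBTPS1, the protease that cuts ATF6, fell by 0.49 under NSM and by 1.07 under DSF + NSM, and CREB3 rose by 0.61, 0.64 and 0.69, with 0.52, 0.37 and -0.091 under equal sums, none called there, and the first lost without any single DMSO library or DSF library 1 or 2 (adjusted p = 0.0556 to 0.124).

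Of 24 genes of translocation and the early secretory pathway, 4 were higher and 1 lower under DSF, 7 and 4 under NSM, and 7 and 4 under DSF + NSM, or 2 and 4, 4 and 6, and 1 and 13 under equal sums. The shares called were 20.8%, 45.8% and 45.8%, near those of all genes. With equal sums 18.2%, 49.9% and 67.5% of all genes were called. KDELR1, a receptor that returns ER proteins from the Golgi, rose by 0.51, 1.29 and 1.13. SEC24D, a coat protein of transport vesicles, rose by 0.84, 0.80 and 0.75, the NSM value at 0.53 (adjusted p = 0.0594) and the last at -0.035 under equal sums, and the first lost without DMSO library 1 or 2 or DSF library 2 (adjusted p = 0.0559 to 0.0755), and the signal peptidase subunits SPCS1 (-0.61 under DSF) and SPCS3 (-0.90 under NSM, -1.22 under DSF + NSM) fell. Of 7 eIF2 kinases and partners, 0 were higher and 1 lower under DSF, 1 and 1 under NSM, and 1 and 4 under DSF + NSM, where 3 were called in all without any single DMSO library or DSF + NSM library 1 or 2. The shares called were 14.3%, 28.6% and 71.4%, against 17.8%, 49.1% and 52.8% of all genes, and the fits with a library left out called 44.3% to 46.3% of all genes. PPP1R15B, the constitutive eIF2α phosphatase subunit, rose by 0.93 under NSM and 1.40 under DSF + NSM, EIF2S1, which encodes eIF2α, fell by 0.56 under DSF (lost without any single DMSO library or DSF library 1 or 2, adjusted p = 0.0521 to 0.0899), and EIF2AK2, which encodes PKR, fell by 1.09 under DSF + NSM. EIF2S1 also fell by 0.48 under NSM (adjusted p = 0.0139) and by 0.36 under DSF + NSM (0.0479). Its NSM call was lost without NSM library 1 or 2, and its DSF + NSM call in 10 of 12 fits with a library left out.

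The counts of these lists moved with single libraries, as those of all genes did. Without NSM library 3, which is in no DSF comparison but adds to the shared spread, 10 ER chaperones and foldases, 8 genes of ER-associated degradation, 4 sensors and 18 translocation genes were called for DSF, against 4, 3, 1 and 5 with it, while the share of all genes called was 41.2%, against 17.8%. The translocation count without it was 17 for NSM and 17 for DSF + NSM, against 11 and 11, with 59.9% and 67.8% of all genes called. Without any single library of DMSO or DSF, 2 ER chaperones and foldases and 1 gene of ER-associated degradation were called, and 0 sensors were called without any single DMSO library or without DSF library 1 or 2, while 6.77% to 13.2% of all genes were called in these fits. The DSF calls of HYOU1, DNAJB9, SYVN1, KDELR1 and SPCS1 were lost in none of the 12 fits with a library left out.

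The cytosolic heat shock list, the HSF1 counterpart of the ER chaperones, had another pattern. Despite its name it also holds HSPE1 and HSPD1, which encode mitochondrial chaperonins. Of 16 genes, 4 rose and 3 fell under DSF (median 0.00), 0 rose and 9 fell under NSM (-0.78), and 16 rose under DSF + NSM (2.90). The shares called were 44%, 56% and 100%, against 17.8%, 49.1% and 52.8% of all genes. The NSM share is thus near that of all genes, of which 23.7% fell. Under equal sums 15 of 16 rose in DSF + NSM, where 67.5% of all genes were called. HSPA1A, the inducible HSP70, was at 77.4 to 121 in DMSO, 1801 to 5500 in DSF, 12.8 to 37.3 in NSM and 52688 to 109561 in DSF + NSM. Its near-identical copy HSPA1B was at 1040 to 1219, 16974 to 42318, 303 to 428 and 442073 to 794172 in the same groups. How reads that match both copies were counted is not stated. DNAJB1, a cochaperone of HSPA1A, rose by 2.96 under DSF and 7.73 under DSF + NSM, and HSPH1 rose by 4.58 under DSF + NSM and fell by 1.22 under NSM. HSPE1, a mitochondrial chaperonin partner, fell by 0.97 under DSF and by 2.47 under NSM. All 16 were above the sum of the single-drug changes (median 4.07), against 12.1% of all genes. Among the ER genes CALR and HSP90B1 were above it by less, at 0.91 and 0.78. The HSP90B1 value was called in 8 of 12 fits with a library left out and was 0.36, not called, under equal sums. Of 25 other ER chaperones and foldases, 2 were called above and 3 below the sum, 20% against 26.1% of all genes. ERN1, HERPUD1 and XBP1 were below it, as 22 of 29 ISR genes were, against 14% of all genes.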

How the data were processed

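RNA-seq was performed on 12 SHI-1 libraries, 3 per group. The authors deposited a signal per gene, a normalized count, in 1 file per library, and the file headers name 24 libraries, of which 12 are used here. The submitters' processing notes name Trimmomatic, Bowtie2, Picard, featureCounts, DESeq2 and bcl2fastq 2.19 with hg38, whereas the supplementary methods name STAR and Salmon. Only 31.2% to 32.4% of values above 0 were whole multiples of the value of 1 read, so reads were not recovered and limma 3.58.1 (R 4.3.3) took the place of a model of counts. A linear model with trend and robust empirical Bayes was fitted to log2(value + 1) of the genes that reached 10 in 3 or more libraries, with all 12 libraries in the fit, and p-values, two-sided, were Benjamini-Hochberg adjusted with a threshold of 0.05. Every adjusted p comes from limma. The libraries came from 1 cell line, so that p-values measure the spread between these experiments. The 10 genes and the gene lists, written from general knowledge, were chosen with earlier results of these data known. Besides the 10 genes, the text names 19 chosen genes and, in each list and comparison with DMSO, the called genes with the largest rise and fall. Alternatives were a pseudocount of 0.1 or 10, no filter, a value of 10 reached in every library, median of ratios scaling, equal sums, a replicate block, library weights, only the groups compared, and each library left out. On simulated data, limma recovered 58.2%, 55.2% and 52.2% of 67 genes changed 2-fold among 12797 in the DSF, NSM and DSF + NSM comparisons, with 6.77%, 7.03% and 4.72% false calls. In the simulation 67, 67 and 66 genes were changed 1.5-fold, 2-fold and 4-fold. That share is far below the 17.8% to 52.8% of genes called against DMSO, so that these rates need not hold for the data. Positions and lengths are from GENCODE 44 and promoters from RefSeq (both GRCh38), and figures were drawn with matplotlib 3.10.9 (Python 3.11.15, pandas 2.3.3, numpy 2.4.6).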

Additional observations from a re-analysis of the deposited data

Results flagged for a closer look

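For 5 of the 10 ER genes the effect of NSM in the presence of DSF differed from its effect in the absence of DSF, by the interaction term of limma. HSP90B1 differed by 0.78 on the log2 scale (95% interval 0.29 to 1.26, adjusted p = 0.0225) and CALR by 0.91 (0.57 to 1.25, adjusted p = 0.0014). The NSM change without DSF was 0.23 for HSP90B1 and -0.11 for CALR, neither called, and that with DSF (DSF + NSM against DSF) was 1.01 and 0.80, both called. ERN1 differed by -1.86 (-2.39 to -1.34, adjusted p = 0.000247), HERPUD1 by -0.90 (-1.26 to -0.54, adjusted p = 0.00202) and XBP1 by -0.84 (-1.14 to -0.54, adjusted p = 0.00107), so that NSM gave a smaller rise with DSF than without it. In groups of 3 libraries the Dixon test for a single outlying library was not applied.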

How the results depend on the processing

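Of 1250 values of the 10 ER genes under 21 alternatives, 1147 kept their direction and side of the threshold, 30 lost and 50 gained a call and 23 changed sign, 2 of them past the threshold. Under equal sums the log2 values that changed sign were HSP90B1 -0.035 (NSM), -0.25 (DSF + NSM) and -0.21 (DSF + NSM against NSM), CALR -0.12, ATF6 -0.70 (adjusted p = 0.00501), SEL1L -0.58, HYOU1 -0.35, EDEM1 -0.27, CREB3 -0.091, SEC24D -0.035, SYVN1 -0.012 and EIF2AK3 -0.00094 (DSF + NSM), XBP1 -0.16, ATF6 -0.32 and SEL1L -0.23 (DSF + NSM against DSF), HERPUD1 -0.43 (against NSM, adjusted p = 0.0104) and ATF6 -0.40 (interaction). This scaling divides DMSO, DSF, NSM and DSF + NSM libraries by 0.787 to 0.811, 0.84 to 0.864, 0.929 to 0.988 and 1.28 to 1.44. ATF6 in DSF + NSM was also at -0.039 with library weights. Counts of ER genes called, each with the share of all genes called under that setting, were 9 with library weights (59%) and 8 with only the groups compared (56%) for DSF, 8 with library weights for NSM (69%), 3 under equal sums for DSF + NSM against DSF (61%), and, for DSF + NSM against NSM, 7 under equal sums (54.6%), 7 with library weights (58.2%) and 1 with only the groups compared (19.1%). With a library left out these counts were 4 to 6 (DSF), 5 to 7 (NSM), 7 to 8 (DSF + NSM), 7 to 10 (DSF + NSM against DSF), 2 to 6 (against NSM) and 4 to 6 (interaction). Values that changed sign with a library left out ranged from -0.18 to 0.0035 for CALR in NSM, -0.065 to 0.16 for ATF6 and -0.033 to 0.33 for SEL1L in DSF + NSM, -0.13 to 0.22 for ATF6 and -0.56 to 0.20 for SEL1L in the interaction, and -0.042 to 0.057 for SDF2L1 in DSF. Of 117 called results of other named genes, 90 held in every alternative, 16 were lost with a library left out and 11 in other alternatives alone. The replicate block gave 5, 6, 7, 7, 3 and 5 ER genes called in the same order of comparisons. Deviations of same-numbered libraries correlated from -0.0644 to 0.278 in 18 pairs, 2 of them over 0.1, and the numbers were not taken as pairs. The highest was that of NSM library 3 with DSF + NSM library 3, while different-numbered pairs of these groups ranged from -0.233 to 0.239. Whether equal numbers mark a shared experiment is not given in the labels. Levels near 1 read, as for GDF15 in DMSO, limit what the depth can show.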

Other observations

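Among 10794 genes with a mean value of at least 50, those whose log2 levels followed HSPA5 most closely over the 12 libraries were SPAG9 (Pearson r = 0.992), a scaffold of JNK signaling, IFRD1 (0.990), PRNP (0.989), which encodes the prion protein made in the ER, ANXA1 (0.986) and MXD1 (0.985). Those closest to HERPUD1 were KLF6 (0.994), LOC100288175 (0.992), CRTC2 (0.990), DDIT3 (0.989) and RNF19B (0.989). The libraries share 4 groups, so that these values describe the order of the groups and carry no test. Within the 10 ER genes, the correlation with HSPA5 was 0.948 for HERPUD1, 0.909 for ERN1, 0.907 for XBP1, 0.693 for HSP90B1, 0.631 for CALR, 0.489 for SEL1L, 0.487 for ATF6, -0.612 for SDF2L1 and -0.782 for PDIA4.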
